A study of Mus musculus with 9 samples.

Results

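The genes examined here were 36 components of PI3K, AKT and mTOR signaling, chosen by name because TCL1 family proteins are AKT coactivators. They were 36 of the 22154 mouse genes of the deposited coding-sequence quantification, and all 36 passed the filter on low counts. Transcription was measured in splenic B cells of 9 mice of the strain C57/BL6NTac, with 3 mice per group and 1 RNA-sequencing library per mouse. Eµ-MTCP1 mice (founder line Z36) carried human MTCP1 and Eµ-TCL1 mice carried human TCL1, in both models under immunoglobulin heavy chain regulatory elements that drive expression in B lineage cells. The transgenic mice were matched for age and were sampled with established leukemia, whereas the wildtype mice were littermates that lacked the hMTCP1 transgene; the age itself is not given in the sources used here. The Eµ-MTCP1 mice came from 1 founder line, so that founder and transgene cannot be told apart. Disease and transgene cannot be told apart in either model. Whether the Eµ-TCL1 mice shared a colony with the wildtype littermates is not given, so colony and transgene cannot be told apart for Eµ-TCL1. B cells were enriched with a pan B cell kit that removes other cells and does not select CD5+ leukemic cells. Nothing in the labels pairs mice of different groups.

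Class I PI3K phosphorylates a membrane lipid after B cell receptor or co-receptor engagement, and the lipid recruits PDK1 and AKT. Lipid phosphatases such as SHIP-1 remove the signal, and AKT phosphorylates the TSC complex, GSK3 and FOXO factors, which frees RHEB to activate mTORC1 and keeps FOXO factors out of the nucleus. TCL1 and MTCP1 bind AKT and promote its activation, a step that occurs on protein and that RNA levels do not show.

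Most of the 36 genes differed little between leukemic and wildtype B cells. Sgk1 and Foxo1 were lower in both transgenic groups combined. Neither passed the test in either model alone, nor with certain single mice left out. Transcripts of the regulatory subunit gene Pik3r1 shifted toward a short form that was scarce in wildtype mice. No member gene passed the test between Eµ-TCL1 and Eµ-MTCP1. Fold changes below are log2 values with their standard errors (SE), from the edgeR quasi-likelihood test across 11165 genes with Benjamini-Hochberg adjustment, and a gene was called at an adjusted p under 0.05. Levels are counts scaled to library size (CPM), with the SD over 3 mice, and mice are numbered 1 to 3 within each group.

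The libraries held 6464089 to 8053017 reads on the coding reference, at which 3 reads corresponded to 0.373 to 0.465 CPM before TMM scaling. The transgenes fitted the labels: on the authors' normalized log2 scale human MTCP1 was at 11.1 to 12.3 in Eµ-MTCP1 mice and at most 6.19 elsewhere, and human TCL1A was at 14.9 to 15.6 in Eµ-TCL1 mice and at most 6.96 elsewhere. The 7 B cell markers summed to 7495 to 11160 CPM in every mouse, and none of the 7 was called. The 10 T cell markers, of which Cd2 held most of the sum, summed to 471 to 956 CPM in Eµ-MTCP1 mice, 446 to 899.7 CPM in Eµ-TCL1 mice and 400.4 to 447 CPM in wildtype, and none of the 4 that passed the filter was called. Cd4 was at 0 to 0.553 CPM, Cd3e at 0 to 7.05 CPM, and Cd3g at 0.492 to 22.5 CPM in transgenic and 1.19 to 1.73 CPM in wildtype mice. The 10 myeloid markers summed to 847 to 1318 CPM in Eµ-MTCP1 mice, 360.2 to 1569 CPM in Eµ-TCL1 mice and 844 to 1767 CPM in wildtype, and 1 of the 10, Cd68, was called higher, at 154 to 323 CPM in transgenic and 36.05 to 68.3 CPM in wildtype mice. The 5 plasma cell markers summed to 102 to 2843 CPM in transgenic and 743 to 1267 CPM in wildtype mice, and 1, Prdm1, was called higher, at 28.6 to 123 and 12.1 to 24.5 CPM. The 4 markers of CD5+ leukemic B1-like cells summed to 407 to 695 CPM in the transgenic mice and 21.1 to 32.9 CPM in wildtype, and all 4 were called. The library of wildtype mouse 2 was the only one on its sequencing lane. Where that mouse stood out, as for Foxo1, Ppp2ca and Klf13 below, mouse and lane cannot be told apart.

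Against wildtype, 0 of 36 member genes were called in Eµ-MTCP1 mice, where 9.48% of all genes were called, and 0 in Eµ-TCL1, where 9.20% were. At an unadjusted p under 0.05 the counts were 7 of 36 in Eµ-MTCP1 (25% of all genes) and 11 of 36 in Eµ-TCL1 (25.1%). DESeq2 called 1 and 5 members in the same 2 comparisons (14.8% and 15.3% of all genes), and limma on the authors' normalized values called 1 and 1 (9.02% and 9.23%). Between Eµ-TCL1 and Eµ-MTCP1, edgeR called 0 of 36 members (0.0448% of all genes), with 2 at an unadjusted p under 0.05 (6.42%), 1 by DESeq2 (0.657%) and 0 by limma (0.0179%). With both transgenic groups set against wildtype, 2 of 36 members were called (13.1% of all genes), and both were lower (6.16% of all genes were called lower and 6.95% higher). DESeq2 called 7 (18.9%) and limma 4 (12.5%) in that comparison, and 11 of 36 had an unadjusted p under 0.05 (29.1%). The share of members called by edgeR was thus no higher than that of all genes. The median log2 fold change of the 36 genes against wildtype was 0.02 in Eµ-MTCP1 mice, -0.00 in Eµ-TCL1 mice and 0.05 in both together, beside -0.02, -0.01 and -0.02 over all genes. All of these comparisons share the same 3 wildtype mice.

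**Figure D1:**
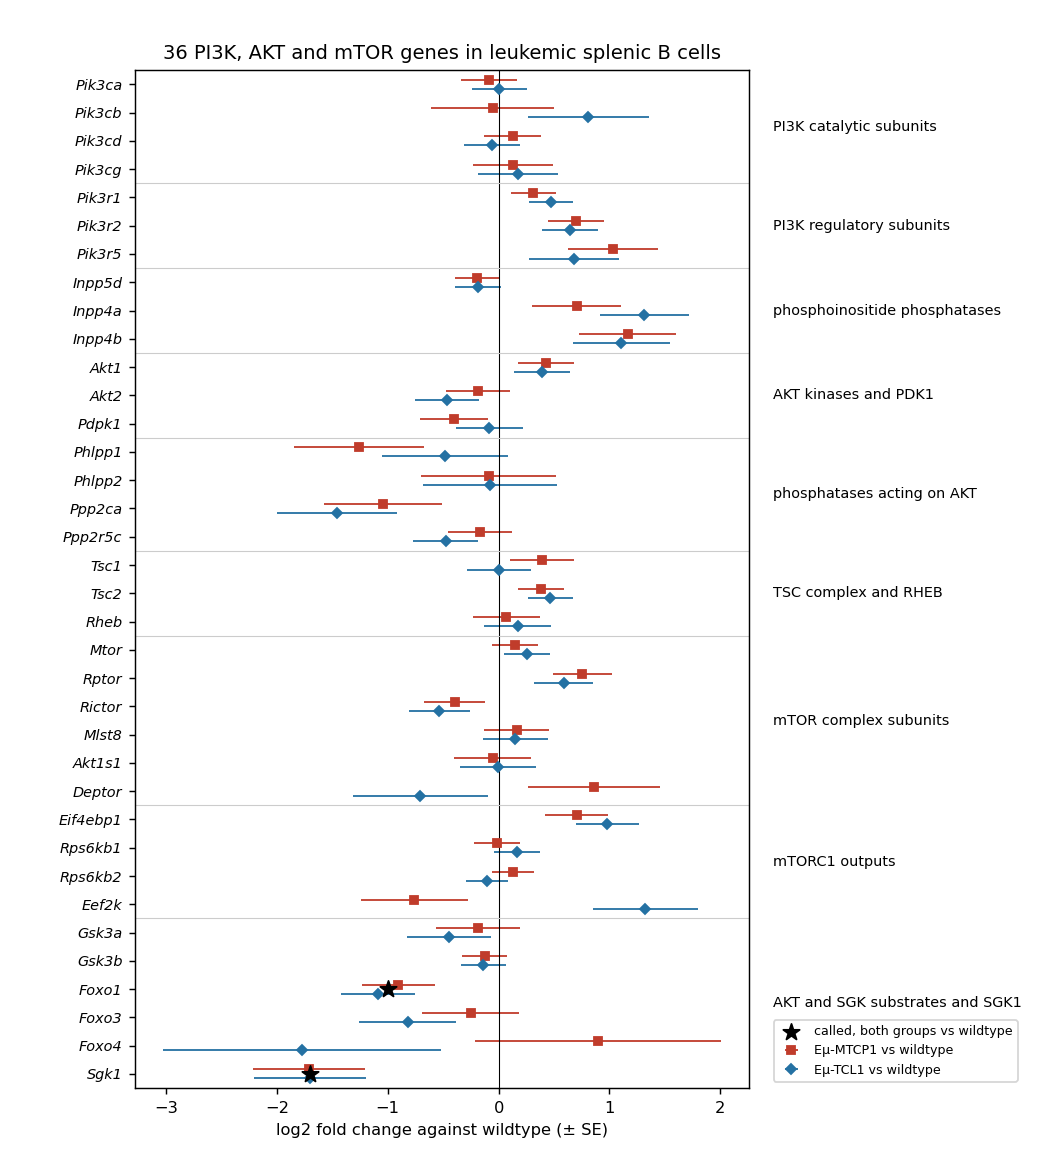
Log2 fold change against wildtype (x axis, ± SE) of each of the 36 genes in Eµ-MTCP1 (red squares) and Eµ-TCL1 (blue diamonds), grouped by role. Most points lie within 1 log2 unit of 0, and the stars mark the combined fold change of Foxo1 (-0.997) and Sgk1 (-1.70), the 2 genes called with both transgenic groups together.

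The PI3K catalytic subunits did not pass the test in any comparison. Pik3cd, which encodes the p110δ subunit that predominates in B cells, stood highest of the 4 on the TPM scale, which corrects for transcript length: 76.6 ± 21.5 TPM (SD, n = 3) in Eµ-MTCP1 mice, 62.5 ± 10.8 in Eµ-TCL1 mice and 71.3 ± 6.50 in wildtype. Pik3cg followed at 9.73 ± 5.36, 10.1 ± 2.26 and 10.6 ± 1.84 TPM, and Pik3ca at 7.03 ± 1.54, 6.06 ± 1.67 and 7.49 ± 1.42 TPM. Pik3cb was the lowest, with at most 0.914 ± 0.311 TPM in Eµ-TCL1. The order was the same in all 3 groups, and the fold change of Pik3cd was 0.13 (SE 0.26) in Eµ-MTCP1 and -0.06 (SE 0.26) in Eµ-TCL1. The largest combined fold change of the 4 genes was 0.38 (SE 0.48) for Pik3cb.

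The 3 regulatory subunit genes had positive fold changes against wildtype in both models, and edgeR called none of them. Of all 11165 genes, 5428 were positive in Eµ-MTCP1 and 5509 in Eµ-TCL1. Pik3r2, which encodes p85β, was at 68.0, 69.6 and 69.2 CPM in Eµ-MTCP1 mice 1 to 3, 75.3, 52.2 and 71.8 CPM in Eµ-TCL1 mice and 46.4, 54.1 and 27.1 CPM in wildtype. The Eµ-MTCP1 values lay above all wildtype values, and Eµ-TCL1 mouse 2 lay within their range. The combined fold change of Pik3r2 was 0.67 (SE 0.23, adjusted p = 0.0792, edgeR, and 0.0418 by DESeq2), and its adjusted p reached 0.229 over the alternatives. Pik3r5, the p101 adaptor of p110γ, was at 31.2, 81.2 and 83.8 CPM in Eµ-MTCP1 mice, 42.4, 34.3 and 77.7 CPM in Eµ-TCL1 mice and 40.2, 31.3 and 24.9 CPM in wildtype. Both transgenic groups overlapped wildtype, and the combined fold change was 0.85 (SE 0.36, adjusted p = 0.148). Without Eµ-MTCP1 mouse 1 it became 0.995 (adjusted p = 0.043), and its adjusted p reached 0.397 over the alternatives.

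Pik3r1 encodes p85α, the main adaptor of class I PI3K, and shorter forms that start further downstream and lack the N-terminal part of p85α. It lies on chromosome 13 (GRCm38, chr13:101680563-101768217, minus strand). Its summed level was 63.8, 76.0 and 51.7 CPM in Eµ-MTCP1 mice, 61.3, 75.2 and 77.5 CPM in Eµ-TCL1 mice and 44.3, 53.3 and 56.4 CPM in wildtype. The Eµ-TCL1 mice were above all wildtype mice and the Eµ-MTCP1 mice overlapped them. The gene as a whole was not called, with a combined fold change of 0.39 (SE 0.18, adjusted p = 0.166). It was called when changes of average transcript length were taken into account (0.74, adjusted p = 0.0418) and by limma on the authors' values (0.58, adjusted p = 0.0454). Its adjusted p reached 0.489 over the alternatives.

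The 2 main annotated Pik3r1 transcripts start 75587 bases apart. Pik3r1-202, the p85α form, has 15 coding exons, and Pik3r1-201, the short form, has 10, of which 9 are shared over 1256 coding bases. Pik3r1-201 alone holds a first coding exon of 106 bases at chr13:101692183-101692288 of GRCm38, minus strand. The exon is shown because it is the coding sequence that the short form does not share with p85α, with the start codon in capitals.
Pik3r1-201 first coding exon: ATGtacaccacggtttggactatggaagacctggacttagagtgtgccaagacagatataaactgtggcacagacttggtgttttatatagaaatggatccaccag
The 250 bases before each start, from RefSeq on GRCm38.p6, are shown 5′ to 3′ on the minus strand because the transcripts that moved are set apart by their start. Capitals mark CpG dinucleotides. The window of the short form is chr13:101692631-101692880 and that of p85α is chr13:101768218-101768467.
Pik3r1 internal start: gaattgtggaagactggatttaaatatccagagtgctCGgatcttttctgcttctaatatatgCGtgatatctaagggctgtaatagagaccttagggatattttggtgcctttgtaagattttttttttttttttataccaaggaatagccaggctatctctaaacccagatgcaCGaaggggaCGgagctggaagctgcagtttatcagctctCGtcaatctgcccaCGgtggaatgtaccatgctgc
Pik3r1 upstream start: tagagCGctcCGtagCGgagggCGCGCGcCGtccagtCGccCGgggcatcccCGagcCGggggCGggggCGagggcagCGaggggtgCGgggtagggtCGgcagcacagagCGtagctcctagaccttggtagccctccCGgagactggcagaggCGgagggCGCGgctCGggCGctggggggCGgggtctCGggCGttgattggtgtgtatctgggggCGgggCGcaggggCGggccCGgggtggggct
The internal window held 6 CpG dinucleotides and was 42.4% G and C, which is above 16.9% of all 32851 RefSeq windows of that length. The upstream window held 30 CpG dinucleotides and was 76.4% G and C, above 97.0% of all windows. Neither held the FOXO core GTAAACA (3.17% of all windows), the insulin response element CAAAACA (5.56%) or the interferon-gamma-activated site TTCNNNGAA (7.02%), each searched on both strands.

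Pik3r1-201 was assigned 88, 216 and 98 reads in Eµ-MTCP1 mice 1 to 3, 133, 112 and 136 reads in Eµ-TCL1 mice and 0, 0 and 2 reads in wildtype. All 6 transgenic mice were above all 3 wildtype mice. Pik3r1-202 was assigned 296, 306 and 215 reads in Eµ-MTCP1 mice, 303, 497 and 422 in those of the Eµ-TCL1 group and 293, 488 and 452 in wildtype, and these ranges overlapped. The short form thus took 31.4% ± 8.79 (SD, n = 3) of Pik3r1 reads in Eµ-MTCP1 mice, 24.3% ± 6.03 in Eµ-TCL1 mice and 0.147% ± 0.254 in wildtype. The counts of 0 in wildtype mice 1 and 2, of 293 and 491 Pik3r1 reads, allow a share of up to 1.02% and 0.611% on this reference, for counting error only.

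In a test of transcript usage within genes, chosen after the values were seen, Pik3r1-201 was called against wildtype in Eµ-MTCP1 (adjusted p = 0.000230, edgeR diffSpliceDGE), in Eµ-TCL1 (adjusted p = 0.000391) and in both together (adjusted p = 0.000161). It was not called between the models (adjusted p = 1.0), where its share was lower in Eµ-TCL1 by less than the SD within Eµ-MTCP1. It was the only one of 51 tested member transcripts, from 18 member genes, to be called, while 0.233%, 0.194% and 0.301% of all 10290 tested transcripts were called in the 3 comparisons with wildtype and 0.165% between the models.

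On the standard reference, which adds untranslated regions, Pik3r1-201 was assigned 280, 501 and 257 reads in Eµ-MTCP1 mice, 354, 383 and 406 in those of the Eµ-TCL1 group and 20, 37 and 43 in wildtype. The groups again did not overlap, and the share of Pik3r1 reads was 35.7% ± 5.37, 31.0% ± 2.62 and 3.11% ± 0.701 (SD, n = 3 each). Wildtype mice 1 and 2 had shares of 2.43% and 3.09% there, above the limits that counting error alone gave on the coding reference. The combined test gave an adjusted p of 2.84e-06, and 0.461% of all 31473 transcripts tested there were called, with 0.372% in Eµ-MTCP1 and 0.394% in Eµ-TCL1 alone and 0.216% between the models. Among the 125 member transcripts of 29 genes tested there, 2 were called with both groups, 1 in Eµ-MTCP1, 2 in Eµ-TCL1 and 1 between the models. Both references were quantified from the same libraries. Reads on the shared exons were divided between the transcripts by Salmon's estimate. A further short form, Pik3r1-204, is annotated over 338 coding bases only, and full-length transcripts from that start and Pik3r1-201 cannot be told apart on the shared exons.

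**Figure D2:**
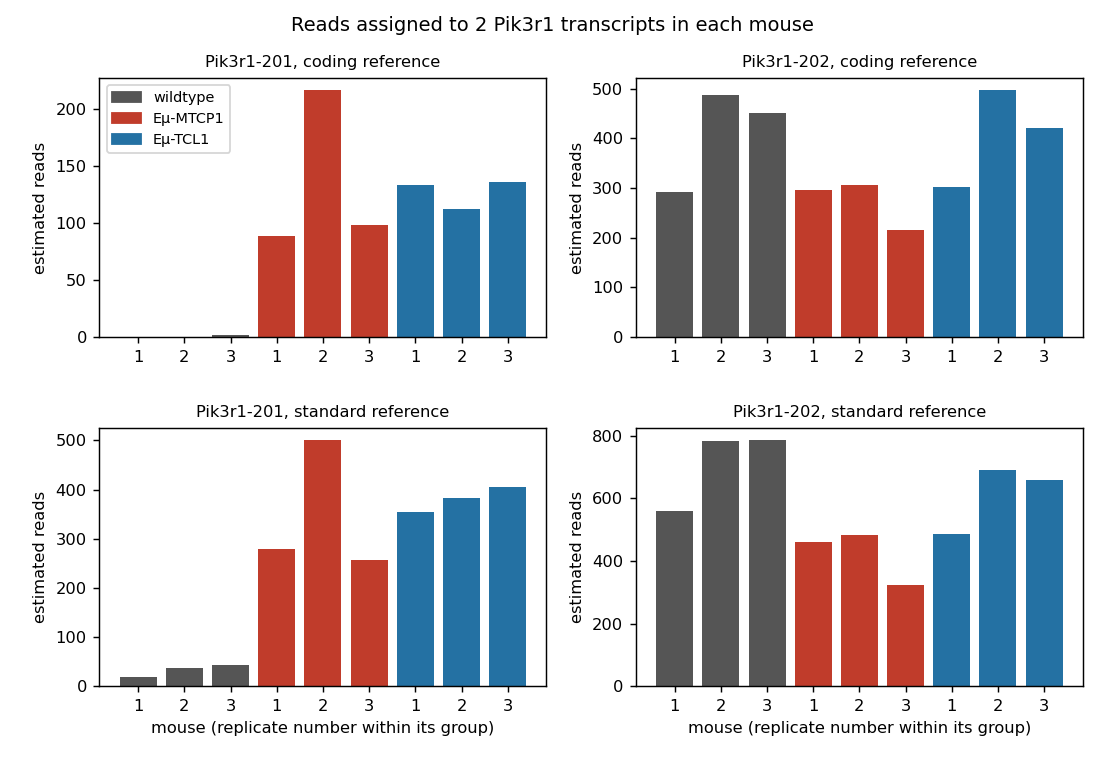
Estimated reads (y axis, from 0) assigned to Pik3r1-201 (left) and Pik3r1-202 (right) in each mouse on the coding reference (top) and the standard reference (bottom), 1 bar per mouse. On the coding reference the short form has 88 to 216 reads in every transgenic mouse and at most 2 in wildtype, while the p85α form overlaps between groups.

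The phosphoinositide phosphatases did not move together. Inpp5d, which encodes SHIP-1, the phosphatase that opposes PI3K at the B cell receptor, was the most abundant of the 3. Its level was 91.1 ± 11.6, 95.1 ± 9.16 and 141 ± 30.7 TPM in Eµ-MTCP1 mice, Eµ-TCL1 and wildtype. In TPM every transgenic mouse (at most 104.5) was below every wildtype mouse (at least 110.4). In CPM, the scale of the test, the groups overlapped at 267 ± 26.1, 268 ± 54.4 and 305 ± 43.85. The combined fold change was -0.19 (SE 0.17, adjusted p = 0.509). Inpp4a and Inpp4b encode phosphatases that act on the lipid left by SHIP-1. Inpp4a was at 7.76, 11.5 and 14.9 CPM in Eµ-MTCP1 mice, 18.2, 10.8 and 23.2 CPM in Eµ-TCL1 mice and 9.37, 7.06 and 4.58 CPM in wildtype. All Eµ-TCL1 mice were above wildtype, and Eµ-MTCP1 overlapped it (combined fold change 1.010, SE 0.36, adjusted p = 0.0928, and 0.0483 by DESeq2). Over the alternatives its fold change fell as low as 0.24 and its adjusted p reached 0.584. Inpp4b was at 31.4, 73.3 and 56.8 CPM in Eµ-MTCP1 mice, 79.3, 21.2 and 55.2 CPM in Eµ-TCL1 mice and 21.1, 21.7 and 29.2 CPM in wildtype. The Eµ-MTCP1 mice were above wildtype, and Eµ-TCL1 mouse 2 was within it. Its combined fold change of 1.14 (SE 0.40) was not called by edgeR (adjusted p = 0.088) and was by DESeq2 (adjusted p = 0.0268). Without Eµ-TCL1 mouse 2 edgeR called it too (fold change 1.30, adjusted p = 0.0203), and its adjusted p reached 0.248 over the alternatives.

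The RNA levels of Akt1 and Akt2 overlapped between groups. Akt1 was at 37.5 ± 8.92 CPM (SD, n = 3) in Eµ-MTCP1 mice, 36.5 ± 6.20 in Eµ-TCL1 mice and 27.8 ± 6.19 in wildtype, and Akt2 at 61.9 ± 22.9, 51.0 ± 12.0 and 70.5 ± 15.8 CPM. Pdpk1, which encodes the PDK1 kinase that phosphorylates AKT, was at 18.1 ± 2.61, 22.6 ± 5.0 and 24.0 ± 9.17 CPM. The groups overlapped for all 3 genes, and the combined fold changes were 0.41 (SE 0.22), -0.33 (SE 0.25) and -0.24 (SE 0.26).

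All 4 genes of phosphatases that act on AKT had negative combined fold changes, beside 5732 of all 11165 genes, and edgeR called none. Ppp2ca, the catalytic subunit of PP2A, was at 33.7, 31.7 and 31.7 CPM in Eµ-MTCP1 mice, 20.3, 17.1 and 35.3 CPM in Eµ-TCL1 mice and 24.6, 135 and 39.5 CPM in wildtype. Wildtype mouse 2 stood apart from every other mouse, and wildtype mouse 1 lay within the transgenic range. The combined fold change of Ppp2ca was -1.25 (SE 0.44, adjusted p = 0.0912, and 0.0357 by DESeq2) with wildtype mouse 2 and -0.23 (adjusted p = 0.704) without it, and without wildtype mouse 1 it was called (fold change -1.64, adjusted p = 0.031). Phlpp1, Phlpp2 and Ppp2r5c had combined fold changes of -0.87 (SE 0.48), -0.08 (SE 0.52) and -0.32 (SE 0.25).

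Tsc1, Tsc2 and Rheb, which encode the TSC complex and the GTPase it restrains, were not called. Tsc2 was at 104, 126 and 127 CPM in Eµ-MTCP1 mice, 114, 143 and 121 CPM in Eµ-TCL1 mice and 113, 90.2 and 70.6 CPM in wildtype. The Eµ-TCL1 mice were just above wildtype mouse 1, and Eµ-MTCP1 overlapped wildtype. The combined fold change was 0.43 (SE 0.18, adjusted p = 0.148), and those of Tsc1 and Rheb were 0.20 (SE 0.25) and 0.12 (SE 0.26).

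The 6 mTOR complex genes held no call. Rptor, which encodes the mTORC1 scaffold Raptor, was at 34.5, 23.6 and 23.5 CPM in Eµ-MTCP1 mice, 30.1, 22.1 and 20.3 CPM in Eµ-TCL1 mice and 16.3, 18.6 and 13.4 CPM in wildtype. All 6 transgenic mice were above all 3 wildtype mice, and the combined fold change of 0.67 (SE 0.23) missed the threshold (adjusted p = 0.088). Rictor, which encodes the scaffold of mTORC2, had a combined fold change of -0.47 (SE 0.24, adjusted p = 0.221), and Mtor, Mlst8 and Akt1s1 lay between -0.03 and 0.20. Deptor, an inhibitor of mTOR, was at 2.48, 3.69 and 4.43 CPM in Eµ-MTCP1 mice, 1.12, 1.72 and 0.692 CPM in Eµ-TCL1 mice and 1.21, 2.71 and 1.86 CPM in wildtype. It was higher in every Eµ-MTCP1 mouse than in any Eµ-TCL1 mouse, at low counts (fold change of Eµ-TCL1 against Eµ-MTCP1 -1.57, SE 0.61, adjusted p = 0.686), and in 2 libraries the authors' coverage filter left it out.

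Among mTORC1 outputs, Eif4ebp1 encodes 4E-BP1, the translation repressor that mTORC1 inactivates. It was at 23.8, 33.4 and 28.1 CPM in Eµ-MTCP1 mice, 49.0, 23.6 and 30.7 CPM in Eµ-TCL1 mice and 18.3, 17.8 and 16.2 CPM in wildtype. All 6 transgenic mice were above wildtype, and the combined fold change was 0.84 (SE 0.25, adjusted p = 0.0524). Eif4ebp1 thus missed the threshold, and it passed on the gene count table (fold change 0.99, adjusted p = 0.0278), on the standard reference (adjusted p = 0.0327), by DESeq2 (adjusted p = 0.0197) and without Eµ-TCL1 mouse 2 (adjusted p = 0.0291). Its adjusted p reached 0.161 over the alternatives. With both transgenic groups against wildtype, 4 of 36 member genes had values that did not overlap (Eif4ebp1, Rptor, Foxo1 and Sgk1), beside 18.6% of all genes.

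Eef2k encodes the kinase that inhibits translation elongation and that S6 kinase restrains. It was at 3.80, 12.1 and 4.92 CPM in Eµ-MTCP1 mice, 33.9, 39.3 and 15.6 CPM in Eµ-TCL1 mice and 10.9, 15.5 and 9.04 CPM in wildtype. Every Eµ-TCL1 mouse was above every mouse of the other groups, and Eµ-MTCP1 overlapped wildtype. The fold change of Eµ-TCL1 against Eµ-MTCP1 was 2.08 (SE 0.49, unadjusted p = 0.00157, adjusted p = 0.346, edgeR). It was called by DESeq2 (adjusted p = 0.00896), and the other 18 alternatives left it above the threshold. Deptor and Eef2k were the 2 of 36 members whose values did not overlap between the models, beside 11.0% of all genes. The S6 kinase genes Rps6kb1 and Rps6kb2 had combined fold changes of 0.07 (SE 0.18) and 0.01 (SE 0.17).

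**Figure D3:**
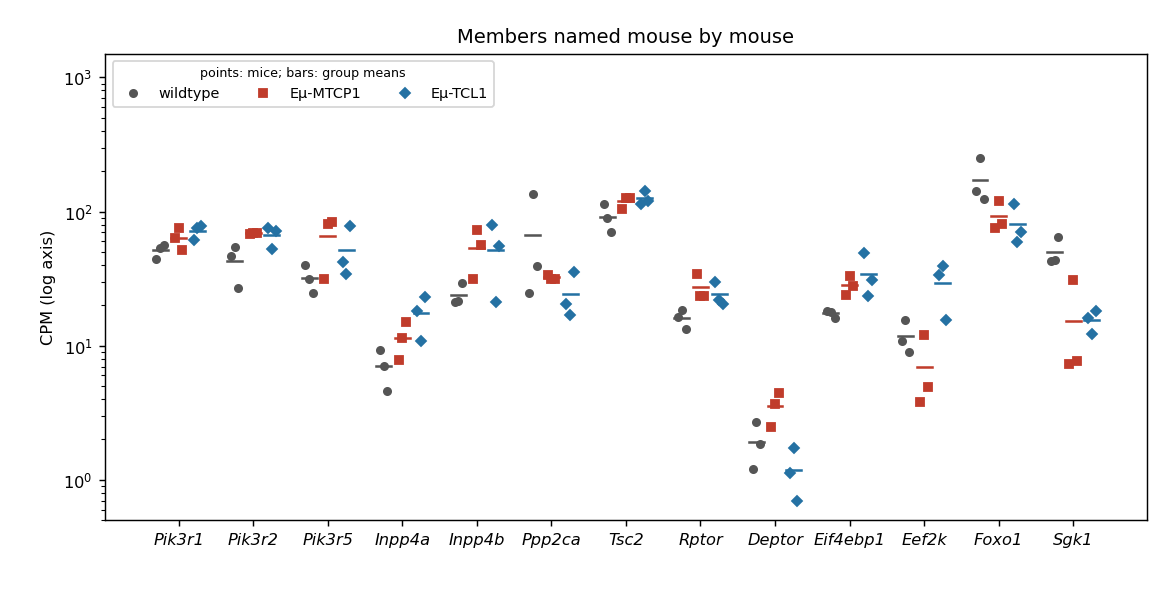
CPM (log axis) of the 13 genes described mouse by mouse, with 1 point per mouse and a bar at each group mean. Foxo1 and Sgk1 are lower in all 6 transgenic mice than in wildtype, Ppp2ca shows 1 wildtype mouse apart from the others, and the values of Deptor and Eef2k do not overlap between the 2 models, although edgeR called neither.

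The 2 called genes belong to the substrates of AKT and SGK kinases and SGK1 itself. All 6 genes of that group had negative combined fold changes, beside 5732 of all 11165 genes. Sgk1 encodes a kinase related to AKT that PDK1 and mTORC2 activate and that phosphorylates FOXO factors. It was at 7.27, 31.0 and 7.71 CPM in Eµ-MTCP1 mice, 16.1, 12.2 and 18.3 CPM in Eµ-TCL1 mice and 42.8, 43.9 and 64.4 CPM in wildtype. All 6 transgenic mice were below all wildtype mice, with Eµ-MTCP1 mouse 2 nearest to them. The combined fold change was -1.70 (SE 0.41, adjusted p = 0.0215, edgeR), with -1.71 (SE 0.50, adjusted p = 0.0601) in Eµ-MTCP1 and -1.70 (SE 0.50, adjusted p = 0.0623) in Eµ-TCL1 alone. The call was lost without wildtype mouse 2 (fold change -1.83, adjusted p = 0.0519) and without wildtype mouse 3 (-1.50, adjusted p = 0.108).

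Foxo1 encodes the main FOXO factor of B cells, which maintains early and follicular B cell programs and which AKT excludes from the nucleus. It was at 75.7, 119.9 and 80.4 CPM in Eµ-MTCP1 mice, 113, 59.4 and 70.3 CPM in Eµ-TCL1 mice and 141, 250.4 and 125 CPM in wildtype. All transgenic mice were below wildtype, and wildtype mouse 2 was far above the other wildtype mice. The combined fold change was -0.997 (SE 0.28, adjusted p = 0.0384). It was -0.66 (adjusted p = 0.179) without wildtype mouse 2, and leaving out any of Eµ-MTCP1 mouse 1 or 3, Eµ-TCL1 mouse 2 or 3 or wildtype mouse 1 also lost the call. Foxo3 (-0.54, SE 0.37), Gsk3a (-0.31, SE 0.32) and Gsk3b (-0.13, SE 0.18) were not called, and Foxo4 was at 0 to 3.30 CPM. In these bulk samples fewer cells with a transcript and less of it per cell cannot be told apart, and the summed B1-like markers, Cd68 and Prdm1 given above moved with the same groups; their part in these differences was not tested.

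Foxo1 and Sgk1 were followed by a list of 25 genes known as FOXO targets in lymphocytes or other cells, of which 20 passed the filter (Il7r, Rag1, Rag2, Tnfsf10 and Pdk4 did not). With both groups against wildtype 8 of 20 were called, all lower, where 6.16% of all genes were called lower. The median log2 fold change was -0.54, beside -0.02 over all genes. The list was chosen with earlier results of these data known, so these values only describe it. The part of B1-like cells in these differences was not tested. In Eµ-MTCP1 6 and in Eµ-TCL1 5 of 20 were called, again all lower, beside 9.48% and 9.20% of all genes called in either direction. Between the models edgeR called 0, as did DESeq2 and limma, and 2 had an unadjusted p under 0.05.

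Ccr7, the chemokine receptor that guides B cells to T cell zones, was at 22.1, 80.5 and 29.2 CPM in Eµ-MTCP1 mice, 89.9, 56.9 and 59.2 CPM in Eµ-TCL1 mice and 526, 465 and 471 CPM in wildtype. No transgenic mouse reached wildtype, and the combined fold change was -3.15 (SE 0.34, adjusted p = 0.000222). Bcl6, which encodes a transcriptional repressor that germinal centers require, had a combined fold change of -2.43 (SE 0.33, adjusted p = 0.00101). Irs2, an adaptor that links insulin and cytokine receptors to PI3K, was at 51.9, 238 and 84.2 CPM, 245, 156 and 82.2 CPM and 604, 899.5 and 518 CPM (-2.25, SE 0.45, adjusted p = 0.0083). Klf13 had a combined fold change of -2.20 (adjusted p = 0.0154) that rested on wildtype mouse 2, at 23.1, 111 and 17.2 CPM in wildtype mice 1 to 3, and without that mouse it was -0.90 (adjusted p = 0.0954). Gadd45a, Sesn1 and Ccng2 were also called, at -1.54, -1.50 and -1.005. The call of Ccng2 was lost in 9 of 18 alternatives, with adjusted p of up to 0.159 without wildtype mouse 3, and those of Klf13 and Sesn1 in 3 and 1 of 18.

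Of the 20 tested targets, 18 had negative combined fold changes, beside 5732 of all 11165 genes, and 12 were not called. Among the uncalled, S1pr1, the receptor for egress from tissue, was at 194 to 392 CPM in transgenic and 305 to 347 CPM in wildtype mice, with a combined fold change of -0.15 (SE 0.21). Cdkn1b, a cell cycle inhibitor, was at -0.13 (SE 0.24), Txnip at -0.15 (SE 0.20) and Klf2 at -0.51 (SE 0.31). The count of targets called fell to 5 without wildtype mouse 3.

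**Figure D4:**
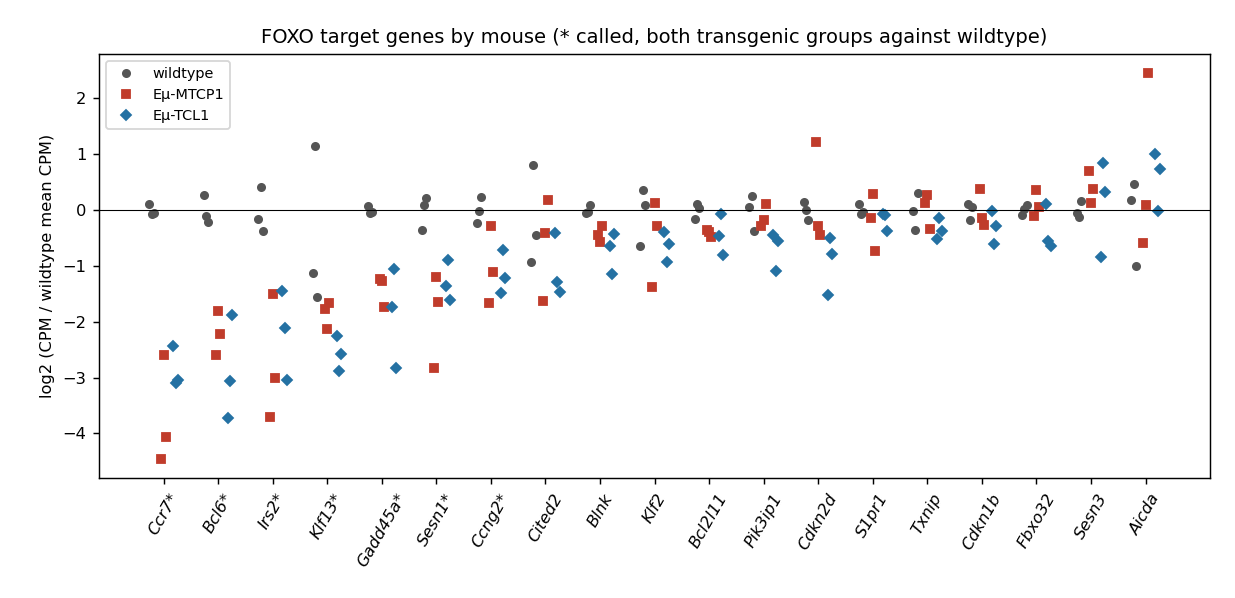
Log2 of CPM over the wildtype mean (y axis) for tested FOXO target genes, 1 point per mouse, ordered by combined fold change, with stars on called genes. Ccr7, Bcl6 and Irs2 lie below wildtype in all 6 transgenic mice, and for Klf13 1 wildtype mouse stands above all others.

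Of 105 other genes of the pathway, fixed as a list of adaptors, lipid phosphatases, AKT regulators, mTOR complex partners, nutrient sensors and outputs, 93 passed the filter. With both groups against wildtype 14 of 93 were called, 8 higher and 6 lower, close to the 13.1% of all genes, and the median log2 fold change was 0.02. In Eµ-MTCP1 12 and in Eµ-TCL1 11 of 93 were called, beside 9.48% and 9.20% of all genes. Between the models edgeR, DESeq2 and limma each called 0, with 4 at an unadjusted p under 0.05. Without wildtype mouse 3 the combined count was 9.

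Inppl1, which encodes SHIP-2, the relative of SHIP-1, was at 58.1, 52.6 and 47.8 CPM in Eµ-MTCP1 mice, 84.0, 89.6 and 56.2 CPM in Eµ-TCL1 mice and 23.7, 17.04 and 13.1 CPM in wildtype. Every transgenic mouse was above wildtype (combined fold change 1.83, SE 0.24, adjusted p = 0.000781). Prr5, a subunit of mTORC2, was at 244 to 381 CPM in transgenic and 97.1 to 145 CPM in wildtype mice (1.36, SE 0.20, adjusted p = 0.00169). Pik3c2b, a class II PI3K, was at 175 to 259.8 and 66.5 to 102 CPM (1.27, SE 0.18, adjusted p = 0.00132). Pik3r6, the other adaptor of p110γ, had a combined fold change of 1.60 (SE 0.42, adjusted p = 0.0316), and Phlda3, which competes with AKT for membrane lipid, one of 2.44 (SE 0.71, adjusted p = 0.0475) at 0.124 to 2.66 CPM. The calls of Pik3r6 and Phlda3 were lost without wildtype mouse 1 (adjusted p = 0.0801 and 0.137), among other single mice, and with library size alone, and that of Phlda3 without any 1 of the 9.

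Pik3r4, which encodes the VPS15 subunit of class III PI3K, was at 43.1, 47.6 and 75.0 CPM in Eµ-MTCP1 mice, 46.6, 90.4 and 63.5 CPM in Eµ-TCL1 mice and 229.8, 224 and 197 CPM in wildtype. It was lower in every transgenic mouse (combined fold change -1.83, SE 0.23, adjusted p = 0.000536). Gab3, a docking adaptor, was at -1.56 (SE 0.36, adjusted p = 0.0167), and its call was lost without wildtype mouse 2 (adjusted p = 0.0772) or 3 (adjusted p = 0.072). Sesn1, a leucine sensor upstream of mTORC1 that stands on both lists, was at 12.6, 39.2 and 28.7 CPM in Eµ-MTCP1 mice, 35.01, 48.0 and 29.3 CPM in Eµ-TCL1 mice and 69.5, 95.5 and 104 CPM in wildtype (-1.50, SE 0.30, adjusted p = 0.00878), and without wildtype mouse 3 it missed the threshold (adjusted p = 0.0507). Irs2, given above, stands on both lists as well.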

How the data were processed

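RNA of splenic B cells from 9 mice was sequenced, 1 library per mouse, and groups were taken from the labels. The labels name SMARTer and Nextera XT as well as TruSeq stranded kits. The deposited estimated counts and TPM per transcript, with effective lengths, were made by the authors with Salmon 1.0.0 (per the processing notes) on mouse coding sequences with human MTCP1 and TCL1 locus sequences added, and again on standard transcripts. A deposited gene count table (raw counts), a coverage-filtered count table of the authors and the authors' normalized log2 values served as alternatives and checks. Their columns of fold changes and p-values were not used. Deposited estimated counts on the coding reference were summed per gene with GENCODE annotation of GRCm38 and rounded. At most 0.291% of reads lay on transcripts that could not be assigned to a gene, and these were left out.

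Genes were filtered with filterByExpr and tested in 1 quasi-likelihood model over all 9 libraries (edgeR 4.0.16, R 4.3.3, TMM scaling, Benjamini-Hochberg adjustment). Transcript usage was tested with diffSpliceDGE. Scripts were tested on simulated data. Levels between genes were compared in TPM of the standard reference. The p-values measure spread among 3 mice a group. Genes were named mouse by mouse when called in any comparison or, since fewer than 10 were, at an unadjusted p under 0.05 with both groups against wildtype or between the models. From the other lists up to 5 called genes per direction with the largest fold changes and a mean of at least 1 CPM were named, and the uncalled FOXO targets named were chosen after their values were seen. Member genes and lists were chosen with earlier results of these data known. Promoter windows were from RefSeq (GRCm38.p6), where 32 of the 36 genes matched. Alternatives were RLE scaling, library size alone, leaving out immunoglobulin genes, DESeq2 1.42.0, transcript length offsets, no expression filter, the gene count table, the standard reference, only the groups compared and each mouse left out. Limma 3.58.1 on the authors' values and the usage test were added after seeing the data. Some genes of the lists are counted but are not reported by name here.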

Additional observations from a re-analysis of the deposited data

How the results depend on the processing

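The number of member genes called against wildtype was sensitive to the tool. In Eµ-MTCP1 it was 0 and became 1 with library size alone, DESeq2, no expression filter, the gene count table, the standard reference, only the groups compared and limma. In Eµ-TCL1 it was 0 and became 5 with DESeq2, 2 with library size alone, no expression filter and the gene count table, and 1 with length offsets, the standard reference, only the groups compared and limma. With both groups it was 2 and became 7 with DESeq2 and 4 with length offsets and limma. Between the models it became 1 with DESeq2. Leaving out 1 mouse gave 0 to 1, 0 to 3, 0 to 3 and 0 to 0 members in Eµ-MTCP1, Eµ-TCL1, both and between the models, with 0 for both groups when wildtype mouse 2 was left out. Called FOXO targets in Eµ-TCL1 numbered 5, 8 with DESeq2 and 3 with length offsets. Leaving out 1 mouse gave 2 to 6, 2 to 7 and 5 to 8 FOXO targets and 6 to 12, 5 to 12 and 9 to 14 other pathway genes in Eµ-MTCP1, Eµ-TCL1 and both.

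Fold changes were followed across the alternatives for the member genes described mouse by mouse and for the called genes of the other lists. None of these changed sign, and the remaining member genes were not followed. Of the alternatives for single genes, 348 kept a call, 47 lost one, 186 stayed uncalled and 14 gained a call. Over its alternatives the combined adjusted p ranged from 0.000301 to 0.108 for Sgk1 and from 0.00678 to 0.179 for Foxo1. The share of Pik3r1 reads on Pik3r1-201 was 27.7 percentage points higher in transgenic mice, 30.3 on the standard reference and 25.2 to 29.7 with 1 mouse left out, and all 10 alternatives kept the call (adjusted p from 2.84e-06 to 0.00285). Under length offsets and limma Pik3r1 and Akt2 were also called with both groups, and for Akt2 wildtype mice 2 and 3 had 10 and 12 reads on an incomplete transcript of 201 bases. Library size alone moved the median of all genes to -0.21 with both groups, and the share of calls that were higher to 32.5% from 53.0%. Without immunoglobulin genes that share was 65.9% in Eµ-TCL1, against 55.1%. No paired analysis was possible because the labels give no shared replicate numbers. Depth limits scarce genes such as Foxo4, which had 0 to 20 reads per library.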

Other observations

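On the standard reference, 2 member transcripts beside Pik3r1-201 passed the usage test in some comparison, of 125 tested. Tsc2-205 was assigned 0, 149 and 249 reads in Eµ-MTCP1 mice 1 to 3, 0, 233 and 283 in Eµ-TCL1, and 0, 20 and 0 in wildtype (adjusted p = 0.0357 with both groups against wildtype, edgeR diffSpliceDGE). The estimate was 0 in 1 mouse of each transgenic group. With both groups 0.461% of all transcripts were called. Pik3cd-204 was assigned 381, 0 and 166 reads in Eµ-MTCP1, 0 in all Eµ-TCL1 mice, and 0, 469 and 0 in wildtype (adjusted p = 0.0153 for Eµ-TCL1 against wildtype and 0.0128 between the models, where 0.394% and 0.216% of all transcripts were called). On the coding reference the same Pik3cd transcript had 281, 0 and 103 reads in Eµ-TCL1 and was not called.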
